A study of Homo sapiens with 12 samples.

Results

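The genes described here encode survival and death proteins of the BCL2 family. They are the 10 genes BCL2, BCL2L1, MCL1, BAX, BAK1, BID, BIK, BCL2L11, BBC3 and PMAIP1, which were chosen by name. Every probe that carried one of these gene names was taken, which gave 22 of the 47228 probes on the array. Of the 22 probes, 18 passed the detection filter and were among the 24207 probes tested, and each of the 10 genes kept at least 1 tested probe.

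BCL2 family proteins decide whether the outer membrane of the mitochondrion stays intact or is opened, which releases cytochrome c and starts the caspase cascade. BCL2, BCL-XL (encoded by BCL2L1) and MCL1 hold the membrane closed, whereas BAX and BAK (encoded by BAK1) form the pores. The BH3-only proteins BID, BIK, BIM (BCL2L11), PUMA (BBC3) and NOXA (PMAIP1) carry death signals to both classes, and in pancreatic cancer cells BCL-XL and MCL1 are well known survival proteins.

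MIA PaCa-2 and Capan-1 are human cell lines from a primary pancreatic ductal adenocarcinoma (PDAC) and from a liver metastasis of one. Their transcripts were measured with Illumina HumanHT-12 v4 arrays after knockdown of focal adhesion kinase (FAK, encoded by PTK2), a kinase that relays signals from integrins. Each line was used with a scrambled control (shCtrl) and with each of 2 FAK hairpins (sh1209 and sh1319, the latter spelled shFAK1319 in the Capan-1 labels), which made 6 groups of 2 arrays. All 6 groups, controls included, carried the doxycycline-inducible PLKO.1 tet-on backbone and were kept in puromycin, at 3.5 ug/ml (MIA PaCa-2) or 1.5 ug/ml (Capan-1). All were exposed to doxycycline, at 50 ng/ml over 96 hours, and 500 ng of RNA went to each array. Whether replicate arrays stand for separate cultures is not given in the labels, so the p-values measure only the spread between these samples, which may be technical.

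Levels are given as normalized log2 intensity, and changes are differences of group means on that scale against shCtrl of the same cell line unless stated. A level of one probe cannot be set against the level of another. Both FAK hairpins of a cell line were compared with the same 2 shCtrl arrays, and an adjusted p under 0.05 in limma was taken as the threshold. PTK2 probe 450253 fell in each group with a FAK hairpin, with changes of -2.24 (sh1209) and -2.48 (sh1319) for MIA PaCa-2 and -0.61 and -1.78 for Capan-1 (limma, adjusted p between 5.2e-08 and 0.0036), so the knockdown was shallowest with sh1209 in Capan-1. Arrays had 16259 to 19814 probes with a detection p under 0.05. At the brightest probe of each marker gene, KRT8 and KRT18 were detected in 6 of 6 arrays of each line, whereas CDH1 was detected in 6 of 6 Capan-1 arrays and 0 of 6 MIA PaCa-2 arrays. In the combined comparison 2 of 7 tested epithelial probes passed, KRT8 (-0.47) and KRT19 (-0.81). Of 6 blood and endothelial probes 2 passed, CD68 (0.29 at 1 of its 3 probes) and VWF (0.26, detected in 2 of 12 arrays). PTPRC and CD3E were each detected in 1 of 12 arrays. At the brightest probe CD68 was detected in 6 of 6 arrays of each line, CD14 in 5 MIA PaCa-2 and 1 Capan-1 arrays, and PECAM1 in 2 and 5. Of 10 fibroblast marker probes 4 were tested, and in MIA PaCa-2 3 of them rose with each hairpin, both of COL1A2 (by 2.69 to 4.31) and that of COL3A1, which was not detected with shCtrl and was at least 8.26-fold (sh1209) and 6.78-fold (sh1319) higher, whereas in Capan-1 the changes of these 3 probes lay between -0.27 and 0.10 and did not pass. The other tested probe, that of LUM, was at least 1.20-fold higher with sh1319 than with shCtrl in Capan-1. It was detected only in these 2 sh1319 arrays and entered the test through them alone. COL3A1 likewise entered only through the 4 MIA PaCa-2 arrays with a FAK hairpin, and VWF only through the 2 Capan-1 arrays with sh1209. Calls of probes that entered in this way are not separate evidence of a rise. Of the other fibroblast markers, at the brightest probe, PDGFRB was detected in 0 of 12 arrays, COL1A1 in 1 MIA PaCa-2 array and DCN in 1 Capan-1 array. The part of these markers in the results was not tested, and in RNA from a whole culture fewer cells of a kind and less RNA per cell cannot be told apart.

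The promoters of PMAIP1 and BID are shown because these genes had the largest moderated F statistics of the hairpin groups among the 18 probes. PMAIP1 lies on chromosome 18 from 59899996 to 59904305 and BID on chromosome 22 from 17734138 to 17774665 (GRCh38.p14). Each window holds the 250 bases before a RefSeq start site and 50 after it, printed 5′ to 3′ on the gene's strand. Capitals mark matches on either strand to the CRE core (TGACGT), the site to which ATF4 and related factors bind, the E-box (CACGTG), the GC box (GGGCGG) and the TATA box (TATAAA), motifs that were chosen with the results known.
PMAIP1 (chr18:59899746-59900045, plus strand): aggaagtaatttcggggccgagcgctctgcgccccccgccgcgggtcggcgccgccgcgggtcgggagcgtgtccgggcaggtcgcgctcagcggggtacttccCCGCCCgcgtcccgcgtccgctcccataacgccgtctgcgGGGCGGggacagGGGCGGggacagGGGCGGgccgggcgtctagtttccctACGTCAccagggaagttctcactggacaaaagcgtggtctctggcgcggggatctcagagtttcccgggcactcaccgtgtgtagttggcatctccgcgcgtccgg
BID (chr22:17774420-17774719, minus strand, the first of 5 windows listed for the gene): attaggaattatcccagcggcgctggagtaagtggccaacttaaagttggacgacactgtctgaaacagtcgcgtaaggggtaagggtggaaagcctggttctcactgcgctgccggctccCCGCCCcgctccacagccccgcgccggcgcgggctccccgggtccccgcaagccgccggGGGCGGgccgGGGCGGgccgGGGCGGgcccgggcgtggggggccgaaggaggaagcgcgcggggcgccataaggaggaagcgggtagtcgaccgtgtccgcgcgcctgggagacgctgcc
The PMAIP1 window holds 1 CRE core that begins at position -56 from the start site, written here as its reverse complement, and 4 GC boxes. The BID window holds 4 GC boxes and no match to the other motifs. Windows were found for 8 of the 10 genes, all but MCL1 and BIK. The CRE core matched in 1 of the 8, against 7.98% of all 35116 RefSeq windows, and the GC box in 5 of the 8, against 45% of all windows. The E-box matched in BAX, with 4 matches, and BBC3 (7.26% of all windows), and the TATA box in BCL2L1 (11.5% of all windows). A match is a run of letters and not evidence of binding.

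As a family the genes did not move one way. In the combined comparison, the mean over the 2 hairpins and the 2 lines, 3 of the 18 tested probes passed the threshold, against 25.2% of all tested probes. BAK1 was higher (12.5% of all probes were) and both PMAIP1 probes were lower (12.7%). The median change of the 18 probes was -0.07, against 0.00 for all tested probes. In MIA PaCa-2, 7 of 18 probes passed with sh1209, against 18% of all probes, 2 of them higher (9.05%) and 5 lower (8.99%). The higher ones include BCL2L11 probe 6110717, which entered the test only through its detection in this group. With sh1319 the count was 5 of 18, against 24.3%, with 1 higher (12.2%) and 4 lower (12.1%). In Capan-1, 3 of 18 passed with sh1209, against 16.8%, with 3 higher (8.14%) and 0 lower (8.69%) in limma. With sh1319, 1 of 18 passed, against 13.7%, with 0 higher (6.95%) and 1 lower (6.77%). The median of the 18 changes was 0.03 (sh1209) and -0.12 (sh1319) for MIA PaCa-2, and 0.05 and -0.13 for Capan-1. With median scaling the count for sh1209 in MIA PaCa-2 was 1 in place of 7. The share of all probes that passed with that scaling is not given here. The test that the study's methods name was run on each pair of groups and adjusted over all probes. With it, 0 of the 18 probes passed in any of the 4 comparisons with either hairpin. How many of all probes passed it after adjustment is not given here. An unadjusted p under 0.05 in that test was reached by 5, 6, 6 and 2 of the 18 (sh1209 and sh1319 in MIA PaCa-2, then in Capan-1). Of all 24207 tested probes, 4613, 5646, 4935 and 4393 reached it, in the same order.

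**Figure D1:**
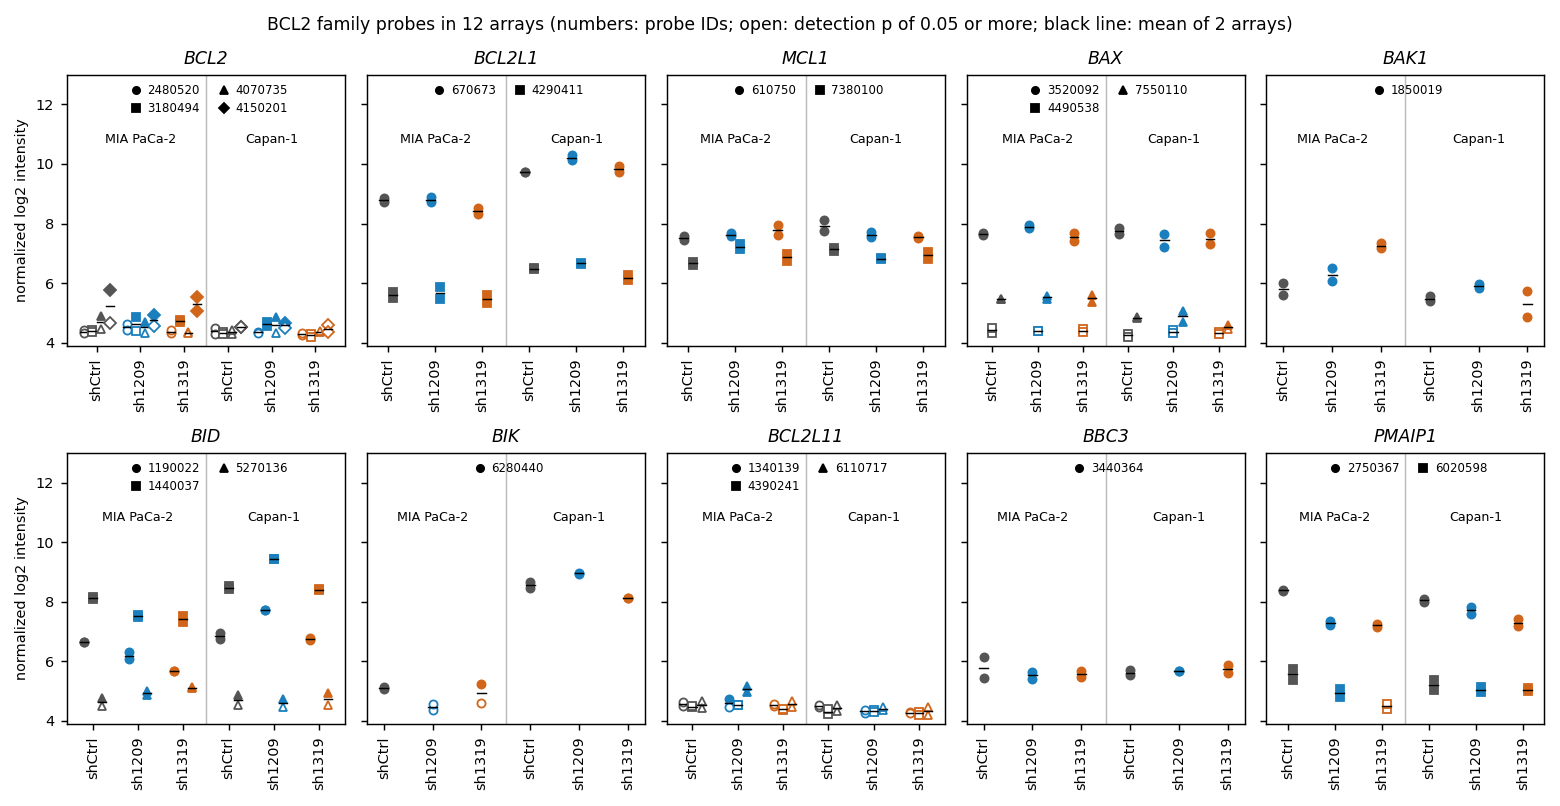
Normalized log2 intensity (vertical axis) of all 22 probes of the 10 genes in each of the 12 arrays, by hairpin and cell line (horizontal axis), 1 panel per gene and 1 marker shape per probe; filled markers had a detection p under 0.05, open markers did not, and black lines are means of 2 arrays. PMAIP1 was lower with both hairpins in MIA PaCa-2, BID went opposite ways with sh1209 in the 2 cell lines, and BIK was brighter in Capan-1 than in MIA PaCa-2.

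**Figure D2:**
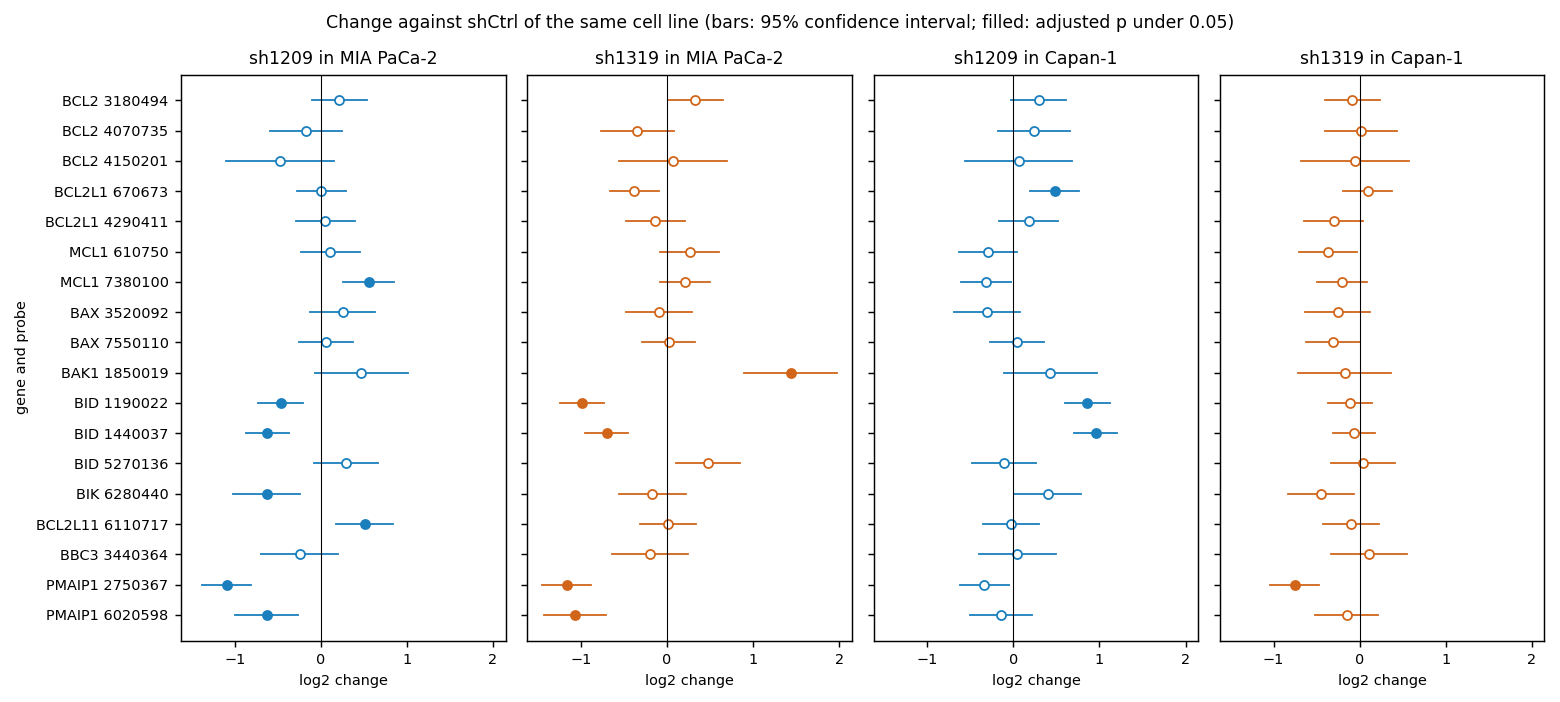
Change of the 18 tested probes against shCtrl of the same cell line (horizontal axis, log2), in 1 panel for each hairpin and cell line; bars are 95% confidence intervals and filled points passed an adjusted p under 0.05. Filled points number 7, 5, 3 and 1 from left to right.

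Of the genes that hold the membrane closed, none changed in the combined comparison. BCL2L1, which encodes BCL-XL, lies on chromosome 20 from 31664452 to 31723963. Its probe 670673 read 9.74 and 9.72 with shCtrl, 10.13 and 10.29 with sh1209 and 9.71 and 9.93 with sh1319 in Capan-1. Both sh1209 arrays were above the other 4, and the rise of 0.48 ± 0.13 (SE, n = 2 per group) with sh1209 passed (limma, adjusted p = 0.025), a 1.40-fold change. It was not kept when any 1 of the 4 arrays compared was left out (0.41 to 0.56) or with median scaling (0.62). In MIA PaCa-2 the same probe read 8.74 and 8.85 with shCtrl, 8.72 and 8.87 with sh1209 and 8.52 and 8.31 with sh1319. Both sh1319 arrays were lowest, but the change of -0.38 did not pass (limma, adjusted p = 0.054). The dimmer BCL2L1 probe 4290411 did not pass with any hairpin, with changes between -0.30 and 0.18. Its interval with sh1209 in Capan-1, -0.16 to 0.52, includes the change at the brighter probe.

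MCL1, on chromosome 1 from 150574558 to 150579610, encodes a survival protein that turns over quickly. Probe 7380100 read 6.72 and 6.60 with shCtrl, 7.13 and 7.30 with sh1209 and 6.99 and 6.74 with sh1319 in MIA PaCa-2, so all 4 arrays with a FAK hairpin were above both controls. The rise with sh1209 was 0.55 ± 0.13 (SE; limma, adjusted p = 0.013), or 1.47-fold, and the change with sh1319 was 0.21 (limma, adjusted p = 0.32). In Capan-1 it read 7.18 and 7.09, 6.83 and 6.81, and 6.81 and 7.05 in the same order, and all 4 arrays with a FAK hairpin were below both controls. Neither change passed there (-0.32 and -0.20), but the difference between the cell lines did, at 0.64 (limma, adjusted p = 0.022). The rise with sh1209 was not kept without shCtrl replicate 2 or sh1209 replicate 2 of MIA PaCa-2 (0.50 and 0.47) or with median scaling (0.62). The other MCL1 probe, 610750, had MIA PaCa-2 changes of 0.11 and 0.26 and Capan-1 changes of -0.30 and -0.37, with no call in any comparison.

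BCL2 itself was close to the background. Its 4 probes were detected in 0, 5, 3 and 5 of the 12 arrays, the first of these was not tested, and no change passed at the other 3. The highest reading was 5.77 at probe 4150201 in shCtrl replicate 1 of MIA PaCa-2, where the other shCtrl array read 4.68 and was not detected. Without that second array the change at this probe with sh1209 was -1.03 and passed, so 1 array decided it.

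Of the pore-forming genes, BAK1 rose and BAX did not pass. BAK1 lies on chromosome 6 from 33572552 to 33580276 and has 1 probe, 1850019, detected in 12 of 12 arrays. In MIA PaCa-2 it read 5.62 and 6.02 with shCtrl, 6.08 and 6.49 with sh1209 and 7.33 and 7.17 with sh1319. The sh1319 arrays stood clear of the other 4, and the rise with sh1319 was 1.43 ± 0.25 (SE; limma, adjusted p = 0.0012), a 2.70-fold change with a 95% confidence interval of 0.89 to 1.98 on the log2 scale. With sh1209 the change was 0.47 and did not pass (limma, adjusted p = 0.24), and the hairpins differed from each other by -0.96 (sh1209 minus sh1319; limma, adjusted p = 0.014). That difference was not kept without replicate 1 of sh1209 or of sh1319 (-0.76 and -0.88).

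In Capan-1, BAK1 read 5.56 and 5.39 with shCtrl, 5.84 and 5.97 with sh1209 and 4.87 and 5.74 with sh1319. The 2 sh1319 arrays fell on either side of the controls, and neither change passed (0.43 and -0.17). The combined rise of 0.54 (limma, adjusted p = 0.022) was not kept without shCtrl replicate 1 of MIA PaCa-2 (0.44), without shCtrl replicate 2 of Capan-1 (0.50) or with no filter on dim probes. The difference between the cell lines, 0.82, did not pass (limma, adjusted p = 0.097). BAX, whose product forms pores together with BAK, had changes between -0.31 and 0.25 at its brighter tested probe, 3520092, and between -0.31 and 0.06 at probe 7550110. Intervals at probe 3520092 reached from -0.69 to 0.63 over the 4 comparisons, and BAX probe 4490538 was detected in 0 of 12 arrays.

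Among the BH3-only genes, PMAIP1 fell. It encodes NOXA, which binds MCL1 and promotes its loss, and is a target of p53 and of ATF4. Probe 2750367 read 8.35 and 8.41 with shCtrl, 7.35 and 7.23 with sh1209 and 7.26 and 7.17 with sh1319 in MIA PaCa-2. In Capan-1 it read 8.01 and 8.09 with shCtrl, 7.59 and 7.83 with sh1209 and 7.41 and 7.18 with sh1319. In both cell lines each array with a FAK hairpin was below both controls, and in Capan-1 the 2 hairpins did not overlap.

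The fall of PMAIP1 probe 2750367 in MIA PaCa-2 was 2.13-fold with sh1209 (log2 change -1.09 ± 0.13, SE; limma, adjusted p = 0.00014) and 2.24-fold with sh1319 (-1.17; limma, adjusted p = 5e-05). In Capan-1 it was 1.69-fold with sh1319 (-0.76; limma, adjusted p = 0.0027), and with sh1209, which lowered PTK2 least, the change of -0.34 did not pass (limma, adjusted p = 0.1). The combined change was -0.84 ± 0.08 (SE; limma, adjusted p = 1.9e-05), and it passed in each of the 19 alternatives run (-0.87 to -0.63). The methods' t-test, which compares 2 groups, was not among these 19. The change with sh1319 in Capan-1 did not pass with median scaling (-0.48).

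The second PMAIP1 probe, 6020598, is dimmer and was detected in 10 of 12 arrays. In MIA PaCa-2 it read 5.76 and 5.37 with shCtrl, 4.80 and 5.06 with sh1209, and 4.42 and 4.57 with sh1319, where it was detected in neither array. It fell by 0.63 with sh1209 (limma, adjusted p = 0.021). In the sh1319 group it was at least 1.82-fold lower than with shCtrl (limma, adjusted p = 0.00057), a bound taken against the lowest signal among detected probes. In Capan-1 its changes were -0.14 and -0.15 and did not pass, with intervals that reached -0.51 and -0.52. The combined fall of 0.50 (limma, adjusted p = 0.0037) was not kept with median scaling (-0.34).

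BID moved in opposite directions in the 2 cell lines with the same hairpin. BID protein is cut by caspase-8 and carries death receptor signals to the mitochondrion. Probe 1440037 read 8.11 and 8.16 with shCtrl, 7.55 and 7.48 with sh1209 and 7.34 and 7.53 with sh1319 in MIA PaCa-2. In Capan-1 it read 8.54 and 8.41, 9.44 and 9.43, and 8.42 and 8.40 in the same order. All 4 arrays with a FAK hairpin were below the controls in MIA PaCa-2, whereas in Capan-1 the sh1209 arrays were far above them and the sh1319 arrays lay around the lower control.

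At probe 1440037 BID fell by 0.62 with sh1209 (limma, adjusted p = 0.0028) and by 0.70 with sh1319 (limma, adjusted p = 0.00077) in MIA PaCa-2, falls of 1.54-fold and 1.63-fold. In Capan-1 it rose 1.94-fold with sh1209 (0.96 ± 0.11, SE; limma, adjusted p = 0.00017) and did not pass with sh1319 (-0.07, 95% interval -0.31 to 0.18). The second bright probe, 1190022, read 6.66 and 6.65 with shCtrl, 6.30 and 6.08 with sh1209 and 5.68 and 5.66 with sh1319 in MIA PaCa-2. Its Capan-1 levels were 6.96 and 6.77, 7.72 and 7.73, and 6.78 and 6.73 in the same order. The order of the groups in Capan-1 was that of the first probe, and in MIA PaCa-2 the 3 groups did not overlap.

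At BID probe 1190022 the changes were -0.47 (limma, adjusted p = 0.018) and -0.99 (limma, adjusted p = 9.2e-05) in MIA PaCa-2, and 0.86 (limma, adjusted p = 0.00054) and -0.11 (limma, adjusted p = 0.64) in Capan-1, for sh1209 and sh1319 in turn. The value with sh1209 in MIA PaCa-2 was not kept with median scaling at either probe (-0.43 and -0.63), nor at probe 1190022 without shCtrl replicate 1 or 2 or sh1209 replicate 2 (-0.46, -0.47 and -0.36). Averaged over both cell lines the opposite changes left -0.18 and -0.11, which did not pass. The third BID probe, 5270136, was detected in 8 of 12 arrays, with all levels between 4.47 and 5.13. Its changes in MIA PaCa-2 were 0.29 and 0.47, opposite in sign to the other probes, and none passed (limma, adjusted p = 0.066 at the lowest). Which transcripts the 3 probes detect was not analysed here.

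BIK, a BH3-only protein of the endoplasmic reticulum, was bright in Capan-1 and near the background in MIA PaCa-2. Probe 6280440 read 8.46 and 8.66 with shCtrl, 8.94 and 8.98 with sh1209 and 8.11 and 8.11 with sh1319 in Capan-1. The 3 groups did not overlap, but neither change against shCtrl passed (0.40 and -0.45; limma, adjusted p = 0.17 and 0.13). The hairpins differed from each other by 0.85 (limma, adjusted p = 0.0099), a difference that was not kept without any 1 of their 4 arrays (0.82 to 0.87). In MIA PaCa-2 it read 5.06 and 5.14 with shCtrl, 4.37 and 4.58 with sh1209, where it was not detected, and 4.62 and 5.24 with sh1319, where 1 of 2 arrays detected it. With sh1209 it was at least 1.35-fold lower (limma, adjusted p = 0.03), a call that 10 of 13 alternatives ended.

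BCL2L11, which encodes BIM, was detected at 1 tested probe in only 2 arrays. Probe 6110717 read 4.96 and 5.16 with sh1209 in MIA PaCa-2 and 4.19 to 4.67 in the other 10 arrays. With sh1209 in MIA PaCa-2 it was at least 1.28-fold higher than with shCtrl (limma, adjusted p = 0.035), a call that 8 of 12 alternatives ended. The 2 sh1209 arrays alone brought this probe through the detection filter, so its calls are not separate evidence of a rise. The other 2 BCL2L11 probes were detected in 1 and 0 arrays and not tested. BBC3, which encodes PUMA, a p53 target, was detected in 12 of 12 arrays at its single probe, 3440364, with levels between 5.41 and 6.13 and changes between -0.25 and 0.11, none past the threshold. The shCtrl arrays of MIA PaCa-2 read 5.43 and 6.13, the lowest but one and the highest of the 12, and without the first (replicate 1) the changes there with sh1209 and sh1319 were -0.60 and -0.56 and passed.

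The response of the 2 cell lines differed at BID, PMAIP1 and MCL1. The test of the difference (mean change of both hairpins in MIA PaCa-2 minus that in Capan-1) passed at 5 of 18 probes, against 14.4% of all tested probes, with 1 higher (7.24%) and 4 lower (7.11%). It was -1.11 at BID probe 1440037 (limma, adjusted p = 0.0003) and -1.10 at BID probe 1190022 (limma, adjusted p = 0.00044), and both values passed in each of the 19 alternatives run. The methods' t-test, which compares 2 groups, was not among these 19. At PMAIP1 the difference was -0.58 (limma, adjusted p = 0.03) and -0.70 (limma, adjusted p = 0.039) at probes 2750367 and 6020598, the lower signal with knockdown being deeper in MIA PaCa-2. The PMAIP1 values were not kept in 8 and 12 of 19 alternatives, and that of MCL1 probe 7380100 in 4. PTK2 itself differed in the same direction at probe 450253, by -1.17 (limma, adjusted p = 0.00021), and whether the depth of knockdown has a part in the PMAIP1 difference was not tested.

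**Figure D3:**
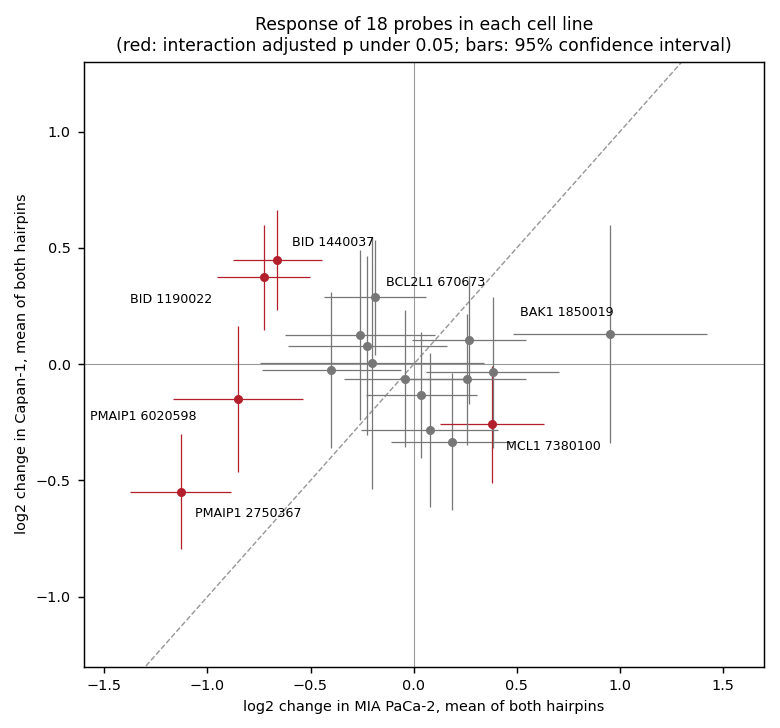
Mean log2 change of both FAK hairpins against shCtrl in MIA PaCa-2 (horizontal axis) and in Capan-1 (vertical axis) for the 18 tested probes; bars are 95% confidence intervals, the dashed line marks equal change, and red points passed the test of the difference between the cell lines. BID lies below 0 in MIA PaCa-2 and above 0 in Capan-1, and both PMAIP1 probes lie above the dashed line.

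The 2 hairpins were also compared with each other within each cell line. In MIA PaCa-2, 3 of 18 probes passed between sh1209 and sh1319, against 22.6% of all probes, with 2 higher (11.5%) and 1 lower (11.2%) with sh1209. They were BAK1, BID probe 1190022 (0.52; limma, adjusted p = 0.0075) and BCL2L11 probe 6110717 (0.50; limma, adjusted p = 0.031), which entered the test only through its sh1209 arrays. In Capan-1, 3 of 18 passed, against 11.3% of all probes, with 3 higher (5.81%) and 0 lower (5.47%) with sh1209 in limma. They were BID probes 1440037 (1.02; limma, adjusted p = 0.00016) and 1190022 (0.97; limma, adjusted p = 0.00033), and BIK. At an unadjusted p under 0.05 (limma), 9 of the 18 were higher and 0 lower with sh1209 in Capan-1, against 2715 and 2906 of all 24207 probes. The 9 are not separate genes: they include both BCL2L1 probes and BID probes 1440037 and 1190022, and also the dim BCL2 probe 3180494. In MIA PaCa-2, 5 were higher and 2 lower with sh1209 at that threshold, against 4120 and 3818 of all probes. The median of the 18 differences was 0.29 in Capan-1 and 0.08 in MIA PaCa-2, against -0.01 and 0.01 for all probes. The difference between the hairpins at PMAIP1 probe 2750367 did not pass in MIA PaCa-2 (0.07, 95% interval -0.21 to 0.36). In Capan-1 (0.42, 95% interval 0.13 to 0.70; limma, adjusted p = 0.062) it did not pass either, but it passed without background correction, with an offset of 50, with the stricter filter and with array weights (limma, adjusted p between 0.01 and 0.049).

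With the control hairpin, the cell lines differed at 6 of the 18 probes, against 42.1% of all tested probes, with 1 higher (22.5%) and 5 lower (19.6%) in MIA PaCa-2. BIK had the largest difference of the 18, with 5.10 ± 0.06 (SD, n = 2) in MIA PaCa-2 and 8.56 ± 0.14 (SD, n = 2) in Capan-1, or 11.0-fold lower in MIA PaCa-2 (-3.46; limma, adjusted p = 1.6e-08). BCL2L1 was lower in MIA PaCa-2 at both probes, by -0.93 at probe 670673 (limma, adjusted p = 9.6e-05) and -0.89 at probe 4290411 (limma, adjusted p = 0.00057). MCL1 probe 7380100 was lower by 0.48 (limma, adjusted p = 0.012) and BID probe 1440037 by 0.34 (limma, adjusted p = 0.029), whereas BAX probe 7550110 was higher by 0.63 (limma, adjusted p = 0.0034). The BID, BAX and MCL1 differences were each lost in at least 1 alternative, BAX with median scaling (0.42), BID with median scaling (-0.41) or without either MIA PaCa-2 array or Capan-1 replicate 1 (-0.28 at the smallest), and MCL1 without MIA PaCa-2 replicate 2 or Capan-1 replicate 1 (-0.42 and -0.43).

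**Figure D4:**
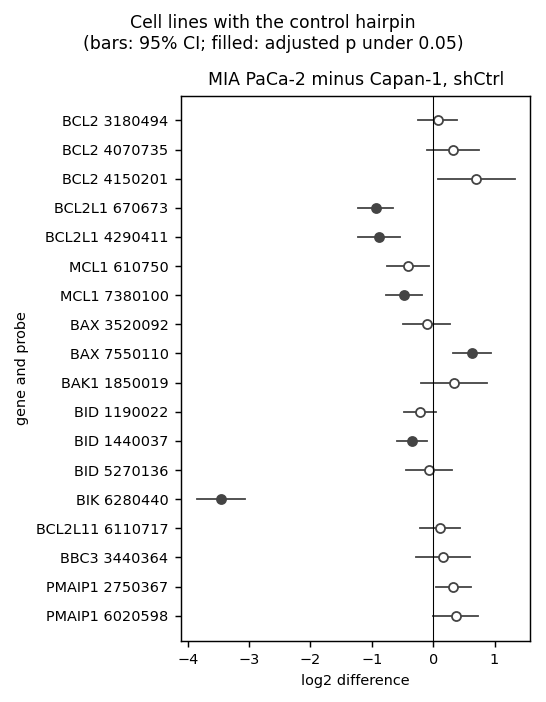
Difference in level between MIA PaCa-2 and Capan-1 with shCtrl (horizontal axis, log2, MIA PaCa-2 minus Capan-1) for the 18 tested probes; bars are 95% confidence intervals and filled points passed an adjusted p under 0.05. BIK stands at -3.46, and all other probes lie between -0.93 and 0.70.

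The probes whose pattern was most like those of BID and PMAIP1 were ranked by Pearson's r over the 12 arrays after the mean of each cell line was subtracted. Closest to PMAIP1 probe 2750367 was PTK2 probe 450253, the target of the hairpins, with r = 0.977 (0.996 over the 6 MIA PaCa-2 arrays and 0.932 over the 6 Capan-1 arrays), followed by TTC33 (0.958) and SLC37A4 (0.955). In MIA PaCa-2 the arrays form 1 cluster with shCtrl and 1 with the FAK hairpins, so the value there rests on these clusters. BID probe 1190022 was most like DCUN1D3 (0.970), MGMT (0.966) and LOC729298 (0.957), and BID probe 1440037 most like LIPG (0.965), SNUPN (0.963) and MGMT (0.955). These values describe arrays that share hairpin groups and are given without a test.

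**Figure D5:**
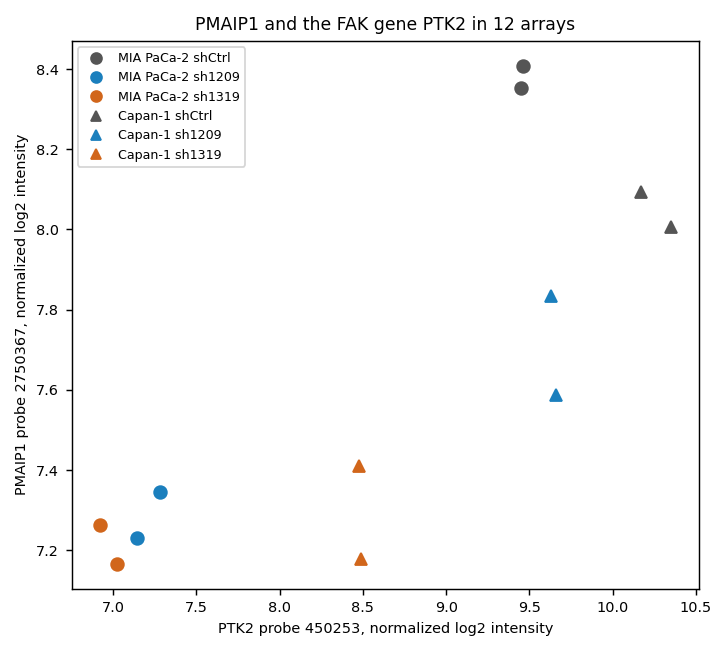
Level of PMAIP1 probe 2750367 (vertical axis) against PTK2 probe 450253 (horizontal axis), both as normalized log2 intensity, in the 12 arrays; circles are MIA PaCa-2, triangles Capan-1, and colours mark hairpins. In each cell line the shCtrl arrays are high for both genes, and in Capan-1 sh1209 lies between shCtrl and sh1319.

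Of 13 other genes of the BCL2 family, 11 had a tested probe, 19 probes in all. In the combined comparison 6 of these probes rose and 2 fell, against 12.5% and 12.7% of all tested probes, with a median change of 0.15 against 0.00 for all tested probes. HRK, a BH3-only gene known from neurons, fell in each of the 4 comparisons, with changes of -0.78 (sh1209) and -0.98 (sh1319) for MIA PaCa-2 and -0.91 and -0.77 for Capan-1 (limma, adjusted p between 0.0013 and 0.011), and -0.86 in the combined one. BNIP3L, a mitophagy receptor, fell by 0.29 at probe 2640192 in the combined comparison (limma, adjusted p = 0.031), whereas its probe 620047 did not pass (-0.08). With sh1209 both probes fell in MIA PaCa-2 (-1.78 and -1.84) and rose in Capan-1 (0.84 and 0.89). With sh1319 the changes were -0.42 and 0.05 in MIA PaCa-2, neither of which passed, and 0.21 and 0.59 in Capan-1, where the second passed. Those that rose in the combined comparison were BAD (0.35 at 1 of 3 probes) and BMF (0.30 at 1 of 2), both BH3-only genes, BCL2L12 at 2 of 3 probes (0.43 and 0.38), BCL2L13 (0.50) and BCL2L15 (0.33 at 1 of 3). BMF probe 110280 was detected with the FAK hairpins in Capan-1 alone. It entered the test only through those arrays, so its call is not separate evidence of a rise. BCL2L15 probe 1710575 was detected in no MIA PaCa-2 array, so that its combined value rests on Capan-1. With shCtrl it was at least 10.0-fold lower in MIA PaCa-2 (limma, adjusted p = 1.7e-10), and in Capan-1 it rose with sh1209 (1.55; limma, adjusted p = 4.8e-06) but not detectably with sh1319 (-0.29).

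Downstream of the mitochondrion, 26 probes of 12 apoptosome, caspase and inhibitor genes were tested, and 3 rose and 6 fell in the combined comparison, against 12.5% and 12.7% of all tested probes, with a median of -0.11. DIABLO fell at 2 of its 3 probes (-0.24 and -0.87; -0.11 at the other), as did both probes of HTRA2 (-0.58 and -0.80) and 1 of 2 probes of APAF1 (-0.54; 0.05 at the other), which forms the apoptosome. DIABLO and HTRA2 encode mitochondrial proteins that relieve the block on caspases. CASP9 (0.59 at 1 of 2 probes; 0.20 at the other), CYCS (0.37), which encodes cytochrome c, and XIAP (0.32), a caspase inhibitor, rose. With sh1209 in MIA PaCa-2, 1 of the 26 probes rose and 13 fell, against 9.05% and 8.99% of all tested probes, with a median of -0.50. With sh1319 there 8 rose and 5 fell, against 12.2% and 12.1%. The 3 probes of BIRC3, an inhibitor of apoptosis, fell with sh1209 in MIA PaCa-2, with changes of -1.97 and -2.77 at probes 3060255 and 5080021 and by at least 2.91-fold at probe 7210154, which was not detected there, and rose with sh1319 (0.56, 0.57 and 0.90; limma, adjusted p between 4.1e-08 and 0.0046). All 3 also rose with both hairpins in Capan-1, by 0.58 to 1.13.

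In the death receptor branch, which reaches BID through caspase-8, 6 of 13 probes rose and 0 fell in the combined comparison in limma, against 12.5% and 12.7% of all tested probes, with a median of 0.24, and 1 fell at an unadjusted p under 0.05. The 6 were the 3 probes of CASP8 (0.36, 0.42 and 0.29, the first detected only with the FAK hairpins in MIA PaCa-2), FAS probe 3420026 (0.39), and 1 of 2 probes each of TNFRSF10B (0.25), which encodes a TRAIL receptor, and TRADD (0.28). That first CASP8 probe, 290592, entered the test only through those arrays, so its call is not separate evidence of a rise. With sh1319 in Capan-1, 0 of the 13 passed in limma (2 at an unadjusted p under 0.05). FAS probe 3420026 rose by 2.12 with sh1319 in MIA PaCa-2 (limma, adjusted p = 5.9e-06), where 1 of 2 shCtrl arrays detected it. It had changes of -0.14 (sh1209 in MIA PaCa-2), -0.34 and -0.06 (sh1209 and sh1319 in Capan-1), none of which passed. The other FAS probe, 460438, did not rise in the combined comparison (-0.25). It was detected in Capan-1 with shCtrl but with neither FAK hairpin there, and with sh1209 it fell at least 1.25-fold (limma, adjusted p = 0.012).

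Of 13 regulators of these genes, 12 had a tested probe, 20 probes in all, and 2 rose and 3 fell in the combined comparison, against 12.5% and 12.7% of all tested probes, with a median of -0.06. ATF4, a transcription factor of the stress response that acts on PMAIP1, fell at 2 of its 3 probes in MIA PaCa-2, 3460309 and 7610187, with changes of -0.89 and -0.99 for sh1209 and -0.91 and -1.26 for sh1319 (limma, adjusted p between 2.8e-05 and 0.00028). At these probes the changes in Capan-1 lay between -0.23 and 0.22 and did not pass, and the cell lines differed by -1.02 and -1.04 (limma, adjusted p = 0.0003 and 0.0012). ATF4 probe 6480053 passed in none of these comparisons, with values of -0.24 (sh1209) and -0.10 (sh1319) for MIA PaCa-2, then -0.39 and 0.04 for Capan-1, and 0.01 between the lines. DDIT3, which encodes the stress factor CHOP, fell by 0.41 in the combined comparison (limma, adjusted p = 0.0058), while FOXO3 (0.63 at 1 of 2 probes; 0.03 at the other) and TP63 (0.96), transcription factors that can induce BH3-only genes, rose. TP63 rose in each of the 4 comparisons, by 0.69 (sh1209) and 1.42 (sh1319) for MIA PaCa-2. In Capan-1, where shCtrl arrays did not detect it, it was at least 1.23-fold (sh1209) and 1.69-fold (sh1319) higher. Of 12 tested probes of p53 targets, 2 rose and 1 fell in the combined comparison, against 12.5% and 12.7% of all tested probes, with a median of 0.05. Both probes of GADD45A, a growth arrest gene, rose in MIA PaCa-2 by 1.58 to 1.91, whereas in Capan-1 it fell by 0.73 at probe 670255 with sh1319 and its other changes, between -0.40 and -0.13, did not pass. RRM2B, a ribonucleotide reductase subunit, fell by 0.32 at 1 of 2 probes in the combined comparison (-0.10 at the other).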

How the data were processed

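For each probe and array (12 arrays on 1 chip) the deposited table holds a linear intensity and a detection p-value, neither normalized by the authors. The submitters' processing notes name GenomeStudio 2011.1. Samples were grouped by the labels. The 92 control rows of the table's 47320 were left out after background correction, 28 columns are empty, and 0 columns of per-sample values were left unused.

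The background was corrected with limma 3.58.1 in R 4.3.3 (function nec, offset 16, so that changes of dim probes come out too small), followed by quantile normalization and log2. The test took the 24207 of 47228 probes that at least 2 of 12 arrays detected at p under 0.05. The 6 group means were fitted by lmFit and eBayes with 6 residual degrees of freedom. Benjamini-Hochberg adjustment ran over all tested probes of a comparison. The combined comparison averages the 4 changes of a FAK hairpin against shCtrl. The number of arrays, 2 per group, limits the precision. Where a probe was not detected in either array of a group, a lower bound of the fold was taken against the lowest signal among detected probes of each array.

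The genes, the lists of related genes and the motifs were chosen with earlier results of these data known. Every probe of the 10 genes is reported. Of the other lists, genes were named where a probe passed in the combined comparison or in at least 3 of the 4 hairpin comparisons with 1 sign, and 3 probes of other genes were named for each of the 3 probes with the largest moderated F of the hairpin groups. A gene that this rule also takes is not reported here. Probes carry the gene names of the deposited table, and positions and promoters are from RefSeq (GRCh38.p14).

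Simulated data in which 200 of 24207 probes changed were used to test the fit. In the combined comparison it recovered 81% of changes of 0.5 and 100% of changes of 1 on the log2 scale, with sh1209 in MIA PaCa-2 it recovered 12% and 94%, and for the difference between the cell lines in the response 3% and 63%. Many more probes passed in the data (25.2% in the combined comparison), which makes the adjusted threshold less strict there. The rates therefore do not give the power of the tests reported. Alternatives were no background correction, an offset of 50, median scaling, no filter, a stricter filter (detection p under 0.01 in at least 4 arrays), the replicate number as a block, array weights, a fit of 1 cell line, the test that the methods name and each array left out in turn.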

Additional observations from a re-analysis of the deposited data

Results flagged for a closer look

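The change with FAK hairpins differed between the cell lines at 5 probes, by the test of the difference itself (mean change in MIA PaCa-2 minus mean change in Capan-1, limma, adjusted p under 0.05). The difference was -1.10 at BID probe 1190022 and -1.11 at BID probe 1440037, where the mean changes of both hairpins had opposite signs in the 2 lines. It was -0.58 at PMAIP1 probe 2750367 and -0.70 at PMAIP1 probe 6020598, where the fall was deeper in MIA PaCa-2, and 0.64 at MCL1 probe 7380100. The lower PTK2 signal was also deeper in MIA PaCa-2, and its part in these differences was not tested. In Capan-1 these 2 BID probes rose with sh1209 alone, the hairpin that lowered PTK2 least there. With sh1319 in Capan-1 they changed by -0.11 and -0.07.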

How the results depend on the processing

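Of 36 calls of BCL2 family probes, 5 held in every alternative that was run for them, and 16 held in every alternative other than the methods' t-test. The methods' t-test compares 2 groups, so it was run neither for the combined comparison nor for the difference between the cell lines. Among the 5, PMAIP1 probe 2750367 (combined) and BID probes 1190022 and 1440037 (difference between the cell lines) therefore never faced it. Of 2268 alternative values in all, 0 reversed a called direction. Without background correction, in Capan-1 5 probes passed with sh1209, 3 with sh1319 and 6 between these hairpins. With an offset of 50 the counts were 5, 2 and 6 for the same comparisons, 8 for the difference between the cell lines and 5 between the hairpins in MIA PaCa-2. With median scaling, which moved the median of all probes by 0.11 for sh1319 in Capan-1, they were 1 for sh1209 in MIA PaCa-2, 0 for sh1319 in Capan-1 (limma), 3 for the difference between the cell lines and 1 between the hairpins in MIA PaCa-2. With the stricter filter, 6 passed between the hairpins in Capan-1. A fit of 1 cell line gave 3 for sh1209 in MIA PaCa-2 and 2 for sh1319 in Capan-1. The methods' t-test gave 0 for each hairpin in each cell line and 0 between the hairpins in either line. It gave 3 between the cell lines with shCtrl. Between the hairpins, 1 probe (MIA PaCa-2) and 5 probes (Capan-1) had an unadjusted p under 0.05 in that test. Of all 24207 tested probes, 5492 and 3988 did.

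With each array left out in turn, the count was 2 to 4 in the combined comparison, 3 to 5 for sh1209 and 5 to 6 for sh1319 in MIA PaCa-2, 2 (sh1209) and 1 (sh1319) for Capan-1, 2 to 5 for the difference between the cell lines, 4 to 7 between the lines with shCtrl, and 1 to 3 and 2 to 3 between the hairpins in MIA PaCa-2 and Capan-1. For sh1209 in MIA PaCa-2 it was 3 without sh1209 replicate 2 and 4 without sh1209 replicate 1 or shCtrl replicate 2. For the difference between the cell lines it was 2 without Capan-1 shCtrl replicate 1, and 3 without either shCtrl replicate of MIA PaCa-2, Capan-1 shCtrl replicate 2, Capan-1 sh1319 replicate 1 or Capan-1 sh1209 replicate 2. Between the hairpins in MIA PaCa-2 it was 1 without sh1209 replicate 1.

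The replicate numbers were not used as pairs in the main fit. After normalization, deviations from the group means of same-numbered arrays correlated at -0.06 to 0.16 over 15 pairs of groups, 1 of them above 0.1. Before normalization the median intensity was higher in replicate 2 than in replicate 1 of every group (92.5 to 97 against 87.7 to 92.8). A shift of that kind is removed by the normalization, so the correlations cannot show it. They bear only on deviations that differ from probe to probe, and what the replicate numbers stand for is not given in the labels. With the replicate number as a block, 160 of 162 values kept their side of the threshold. The block gave 4 in place of 5 probes for the difference between the cell lines and 7 in place of 6 between the lines with shCtrl, and left the other counts as they were, with 3 in the combined comparison.

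The cause of these shifts was not tested. Dim probes limit what can be said of BCL2, BCL2L11 and, in MIA PaCa-2, BIK.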
